A study of Homo sapiens with 4 samples.

Results

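The NF-kB family of transcription factors was examined in H929, a long-established line of human multiple myeloma, the cancer of plasma cells. The set held 10 genes, chosen by name with earlier results of these data known. They were the subunit genes NFKB1, REL, RELA, RELB and NFKB2, the inhibitor gene NFKBIA, the nuclear IkB gene BCL3, and the upstream regulators BIRC3, TRAF3 and MAP3K14. They are 10 of 63677 genes in the count files and 10 of 19142 that passed the filter on low counts, so every one of them was tested. RNA was sequenced from cells transduced with a non-silencing short hairpin RNA (shRNA), the control, in 2 libraries, and from cells transduced with an shRNA against ILF2, in 2 libraries. The ILF2 product is a partner in protein complexes that bind double-stranded RNA. Both groups are the same line with a hairpin vector, and no drug, dose or time after transduction is given in the sources used here. Whether the replicates came from separate transductions, and whether 1 hairpin or 2 were used against ILF2, is also not given. The p-values therefore measure only the spread between these libraries. Loss of ILF2, action of a hairpin on other genes and drift between the cultures cannot be told apart.

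NF-kB works through 2 connected arms. In the canonical arm, the IkB kinase complex marks inhibitors such as the NFKBIA product for destruction, which frees dimers of the NFKB1, RELA and REL products to enter the nucleus. In the non-canonical arm, the TRAF3 and BIRC3 proteins keep the kinase encoded by MAP3K14 at a low level, and when they are removed this kinase drives the processing of the NFKB2 precursor, which then acts with the RELB product. Several of the 10 genes, among them NFKB2, RELB, NFKBIA, BIRC3 and BCL3, are themselves known targets of NF-kB, and this list is not complete. In multiple myeloma both arms can be switched on by mutations, among them losses of TRAF3 and BIRC3, and by signals from the bone marrow.

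The libraries held 72977082 and 71389341 counted fragments in the non-silencing group and 63459322 and 71359863 in the ILF2 shRNA group. ILF2 itself stood at 717 and 733 CPM (normalised counts, scaled by the adjusted library size) in the controls and at 107 and 114 CPM with ILF2 shRNA, which fits the labels. All 8 plasma cell markers looked at, among them SDC1, XBP1 and IRF4, were above 1 CPM in every library. Markers of mature B cells, monocytes, stromal cells and erythroid cells summed to less than 1 CPM per list in every library, and CD22, FCGR3A, COL1A2 and HBA2 were at 0 throughout. Of 4 T cell markers only CD3E was above this level, with 8.35 and 7.56 CPM (here scaled by the library total) in the non-silencing and 16.1 and 16.5 CPM in the ILF2 shRNA libraries, while CD3D, CD3G and CD2 were at or near 0. Mitochondrial genes took 0.307% to 0.351% of all counts in the controls and 0.463% to 0.515% in the ILF2 shRNA libraries. When these and the abundant small RNA genes were left out before scaling, all 5 calls among the 10 genes stayed, with NFKB2 at 0.41 and BCL3 at 0.56 on the log2 scale. In RNA from bulk cultures, a change in the number of cells that express a gene and a change in RNA per cell cannot be told apart.

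Sequences around the starts of 7 of these genes match the motif that NF-kB dimers bind, and they are shown because several of the genes are targets of the factors they encode. The kappa B consensus was searched on both strands of promoter windows from RefSeq (GRCh38.p14), which run from 250 bases before to 50 bases after each annotated start. Of the 10 genes, 9 matched an entry (all but RELB), and 7 of these 9 held the consensus in at least 1 window. Of all 27305 genes in that table, 13.3% held it, and of the 11656 that were also tested here, 17% did. RELA and MAP3K14 held no match in their windows. The windows below are 30 bases each and read 5′ to 3′ on the strand of the gene, with the bases that match in capitals. In NFKBIA and BIRC3 the match is to the opposite strand, in REL, in BCL3 and at NFKB2 sites 1 and 3 to both strands, where overlapping matches were joined, and in the others to the strand of the gene.
NFKB1: cgacgtcagtGGGAATTTCCagccaggaag
REL: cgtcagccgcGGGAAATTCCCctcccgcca
NFKBIA: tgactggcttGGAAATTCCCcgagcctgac
NFKB2 site 1: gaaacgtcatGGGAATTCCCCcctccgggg
NFKB2 site 2: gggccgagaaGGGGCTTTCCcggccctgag
NFKB2 site 3: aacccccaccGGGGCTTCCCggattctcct
NFKB2 site 4: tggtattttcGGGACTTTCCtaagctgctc
TRAF3: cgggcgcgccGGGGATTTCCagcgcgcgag
BIRC3 site 1: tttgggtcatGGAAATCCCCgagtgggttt
BIRC3 site 2: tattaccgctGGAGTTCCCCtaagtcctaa
BCL3: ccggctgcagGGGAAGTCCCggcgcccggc

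The NFKB1 window lies at chr4:102501300-102501329 on the plus strand, with the match beginning at position -49 from the start, and belongs to 1 of the 2 starts of that gene in the table. The REL window is chr2:60881517-60881546 (plus strand, position -47) and that of NFKBIA is chr14:35404811-35404840 (minus strand, position -81). For NFKB2, which has 3 starts in the table, sites 1 and 2 are at chr10:102394461-102394490 and chr10:102394490-102394519, before the start of the second entry. Sites 3 and 4 are at chr10:102395519-102395548 and chr10:102395674-102395703, before the start of the third, and all are on the plus strand. The TRAF3 window is chr14:102777406-102777435 (plus strand, position -33), and the BIRC3 windows are chr11:102317275-102317304 and chr11:102317339-102317368 (plus strand, positions -199 and -135). In BCL3 the match begins at the third base of the transcript, in the window chr19:44748700-44748729 on the plus strand. A match is a run of letters and not a measured binding site. The consensus was present in all 4 of the genes with an entry that rose in these data and in 3 of the 5 that did not pass the test, so it did not separate the 2 sets.

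Of the 5 non-canonical genes among the 10, 4 rose with ILF2 shRNA (NFKB2, RELB, TRAF3 and BIRC3) and 0 fell. Their median log2 change was 0.36, and MAP3K14 did not pass. The count was 3 of 5 by DESeq2 (7.42% of all genes higher) and with the replicate block (6.74%). It was also 3 of 5 by limma-voom, whose share over all genes is not given here. In each of these fits BIRC3 lost its call. Of 4 canonical genes, 0 rose and 0 fell by edgeR, with a median of 0.05, while at an unadjusted p under 0.05 REL alone was higher, and DESeq2, which called 7.42% of all genes higher and 6.9% lower, also called 0. REL passed after a GC and length correction (adjusted p = 0.0084 in edgeR). BCL3, which works with products of both arms, rose. In all, 5 of the 10 genes rose and 0 fell (adjusted p under 0.05 in the quasi-likelihood test of edgeR), where 10.2% of all tested genes were higher and 10.1% lower. The median over the 10 genes was 0.27 against 0.00 over all genes tested. Without non-silencing replicate 2, only NFKB2 and TRAF3 of the 10 passed (5.15% of all genes higher in that fit). Of the 10, 4 rose without non-silencing replicate 1 (5.37% of all genes), 4 without ILF2 shRNA replicate 1 (9.51%) and 6 without ILF2 shRNA replicate 2 (7.82%). The difference between the arms as such was not tested, and the arms hold only genes of the 10. BIRC2 (-0.05), CHUK (-0.01) and TRAF2 (-0.19), named outside the rule for named genes, were counted with the IkB kinase complex instead. None of them passed (edgeR adjusted p = 0.661, 0.965 and 0.0704).

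**Figure D1:**
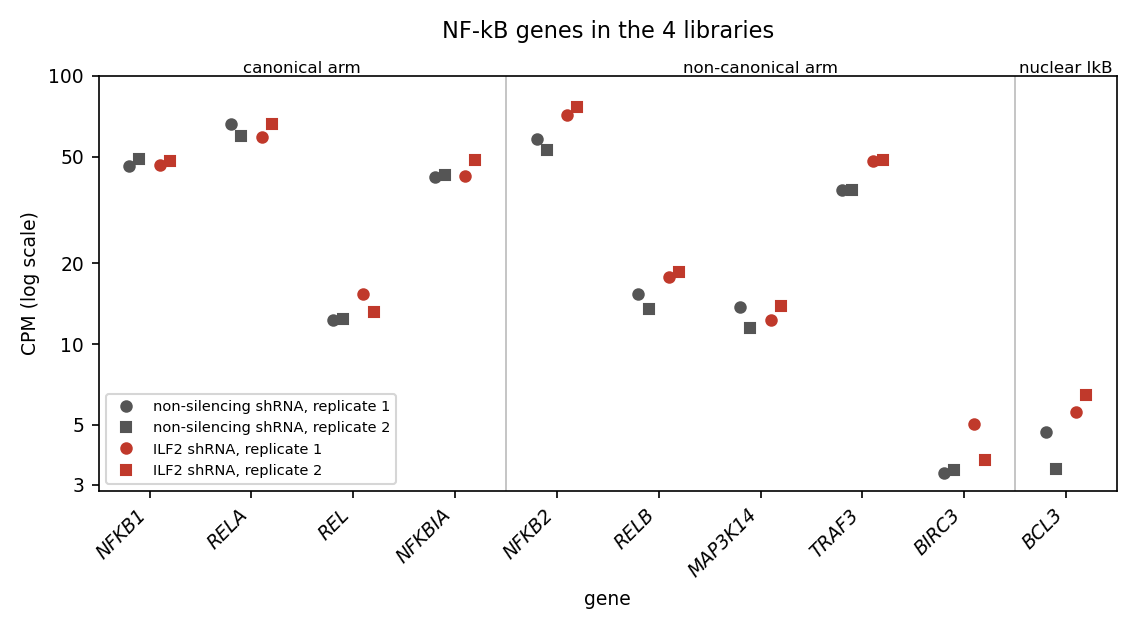
Normalised counts (CPM, log scale) of the 10 genes in each of the 4 libraries, with grey for non-silencing shRNA, red for ILF2 shRNA, circles for replicate 1 and squares for replicate 2. Both red points lie above both grey points for NFKB2, RELB, TRAF3, BIRC3, BCL3 and REL, and the groups overlap for NFKB1, RELA, NFKBIA and MAP3K14.

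NFKB2 (ENSG00000077150, GRCh37 chromosome 10, 104153867 to 104162281, plus strand, 4479 exon bases) encodes the precursor p100, which is cut to the subunit p52. Its counts were 4292 and 3826 with the control hairpin and 4535 and 5272 with ILF2 shRNA, which is 57.9 and 53.1 CPM against 71.2 and 76.2 CPM. Both ILF2 shRNA libraries lay above both controls, by more than the replicates of either group differed. The mean went from 55.5 ± 3.42 to 73.7 ± 3.54 CPM (SD, n = 2), which is 0.41 in log2 units (SE 0.07, 95% interval 0.26 to 0.55; adjusted p = 1.5e-05 in edgeR). With each library left out in turn the gene passed in 4 of 4 fits, with log2 fold changes of 0.35 to 0.47.

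RELB (ENSG00000104856, chromosome 19, 45504688 to 45541452, plus strand) encodes the partner of p52. Its counts were 1142 and 971 in the non-silencing and 1132 and 1285 in the ILF2 shRNA libraries, or 15.4 and 13.5 CPM against 17.8 and 18.6 CPM. The groups did not overlap, and the controls lay almost as far from each other as from the nearest ILF2 shRNA library. The log2 fold change was 0.33 (SE 0.09, 95% interval 0.15 to 0.51; adjusted p = 0.00397 in edgeR). Without non-silencing replicate 2, the lower control, it was 0.24 and did not pass (adjusted p = 0.216 in edgeR).

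TRAF3 (ENSG00000131323, chromosome 14, 103243813 to 103377837, plus strand) encodes the adaptor that brings the MAP3K14 kinase to its ubiquitin ligases, and so restrains the non-canonical arm. It stood at 37.6 and 37.4 CPM in the non-silencing and 48.2 and 48.4 CPM in the ILF2 shRNA libraries. Replicates were nearly the same in both groups, and the gap between groups was far wider than the gap within them. The mean rose from 37.5 ± 0.166 to 48.3 ± 0.139 CPM (SD, n = 2), which is 0.36 in log2 units (SE 0.07, 95% interval 0.22 to 0.51; adjusted p = 0.00015 in edgeR). It passed in 4 of 4 fits that each left out 1 library, at 0.36 to 0.37. An inhibitor of the arm thus moved in the same direction as the subunits of that arm.

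BIRC3 (ENSG00000023445, chromosome 11, 102188215 to 102210134, plus strand) encodes cIAP2, a ubiquitin ligase that works with TRAF3. It was the least abundant of the 10 genes, with counts of 246 and 245 in the non-silencing and 321 and 256 in the ILF2 shRNA libraries, or 3.32 and 3.40 CPM against 5.04 and 3.70 CPM. Most of the difference lay in ILF2 shRNA replicate 1, and replicate 2 was only slightly above the controls. On the log2 scale the change was 0.37 (SE 0.13, 95% interval 0.11 to 0.64; adjusted p = 0.0353 in edgeR). Without ILF2 shRNA replicate 1 it was 0.14 (adjusted p = 0.604 in edgeR), and the call also ended by DESeq2 (adjusted p = 0.171), by limma-voom (adjusted p = 0.0631), with upper-quartile factors (adjusted p = 0.0519 in edgeR) and without either control library (edgeR adjusted p = 0.164 and 0.115). Its neighbour and close relative BIRC2, which encodes cIAP1 and is named outside the rule for named genes, did not pass (-0.05, adjusted p = 0.661 in edgeR).

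MAP3K14 (ENSG00000006062, chromosome 17, 43340488 to 43394414, minus strand) encodes NIK, the kinase at the centre of the non-canonical arm. It had 13.8 and 11.5 CPM in the non-silencing and 12.3 and 13.9 CPM in the ILF2 shRNA libraries, and the groups overlapped. The log2 fold change was 0.05 (95% interval -0.14 to 0.24; adjusted p = 0.769 in edgeR), and its sign turned to -0.07 without non-silencing replicate 2 and to -0.04 without ILF2 shRNA replicate 2. The antisense gene MAP3K14-AS1 covers 13.9% of its exon bases, and the fragments were counted by strand. NIK is known to be controlled mainly through protein breakdown, which these data do not measure.

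In the canonical arm NFKB1 (ENSG00000109320, chromosome 4, 103422486 to 103538459), the gene for the precursor p105 of the subunit p50, had 46.0 and 48.8 CPM in the non-silencing and 46.7 and 48.0 CPM in the ILF2 shRNA libraries. RELA (ENSG00000173039, chromosome 11, 65421067 to 65430565), the gene for the main activating subunit p65, had 66.2 and 59.6 CPM against 59.3 and 65.9 CPM. For both genes the ILF2 shRNA libraries lay within the spread of the controls or next to it. On the log2 scale the change was 0.00 for NFKB1 and -0.01 for RELA, each with a 95% interval of -0.15 to 0.14 (edgeR adjusted p = 0.988 and 0.960). Both intervals end below the lower bounds of NFKB2 (0.26), TRAF3 (0.22) and RELB (0.15), but above those of BIRC3 (0.11) and MAP3K14 (-0.14). This does not show that the 2 genes were unchanged.

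REL (ENSG00000162924, chromosome 2, 61108656 to 61158745) encodes c-Rel, the subunit best known in lymphocytes. It had 12.3 and 12.4 CPM in the non-silencing and 15.4 and 13.2 CPM in the ILF2 shRNA libraries. The groups did not overlap, but the ILF2 shRNA libraries differed from each other by more than the lower of them differed from the controls. The log2 change of 0.21 (SE 0.09, 95% interval 0.03 to 0.40) did not pass (adjusted p = 0.0930 in edgeR). It passed without ILF2 shRNA replicate 2 (0.33, adjusted p = 0.0174 in edgeR) and once GC content and length were corrected for (0.24, adjusted p = 0.0084 in edgeR). In the annotation used by the authors a second gene on the same strand, ENSG00000267520, shares 50.7% of the exon bases of REL and was listed at 0 in all 4 libraries, so the level of REL per length is understated.

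NFKBIA (ENSG00000100906, chromosome 14, 35870717 to 35873955, minus strand) encodes IkB alpha, the inhibitor that NF-kB induces against itself. It had 42.1 and 42.7 CPM in the non-silencing and 42.3 and 48.7 CPM in the ILF2 shRNA libraries. ILF2 shRNA replicate 1 lay between the controls, and only replicate 2 was above them. The log2 fold change was 0.10 (95% interval -0.05 to 0.25; adjusted p = 0.399 in edgeR), and it was -0.01 without ILF2 shRNA replicate 2.

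BCL3 (ENSG00000069399, chromosome 19, 45250962 to 45263301, plus strand) encodes a nuclear IkB protein that binds p50 and p52 dimers and can turn them into activators. With all 4 libraries it had the largest fold change of the 10 genes, but BIRC3 was above it without non-silencing replicate 2 (0.39 against 0.35) and without ILF2 shRNA replicate 2 (0.58 against 0.45). Its counts were 349 and 247 in the non-silencing and 355 and 446 in the ILF2 shRNA libraries, or 4.71 and 3.43 CPM against 5.57 and 6.44 CPM. The groups did not overlap, but the controls were further apart than the nearest libraries of the 2 groups. On the log2 scale the change was 0.56 (SE 0.13, 95% interval 0.31 to 0.81; adjusted p = 0.00065 in edgeR). Without non-silencing replicate 2, the lowest library, it was 0.35 and did not pass (adjusted p = 0.119 in edgeR), and without non-silencing replicate 1 it was 0.81.

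**Figure D2:**
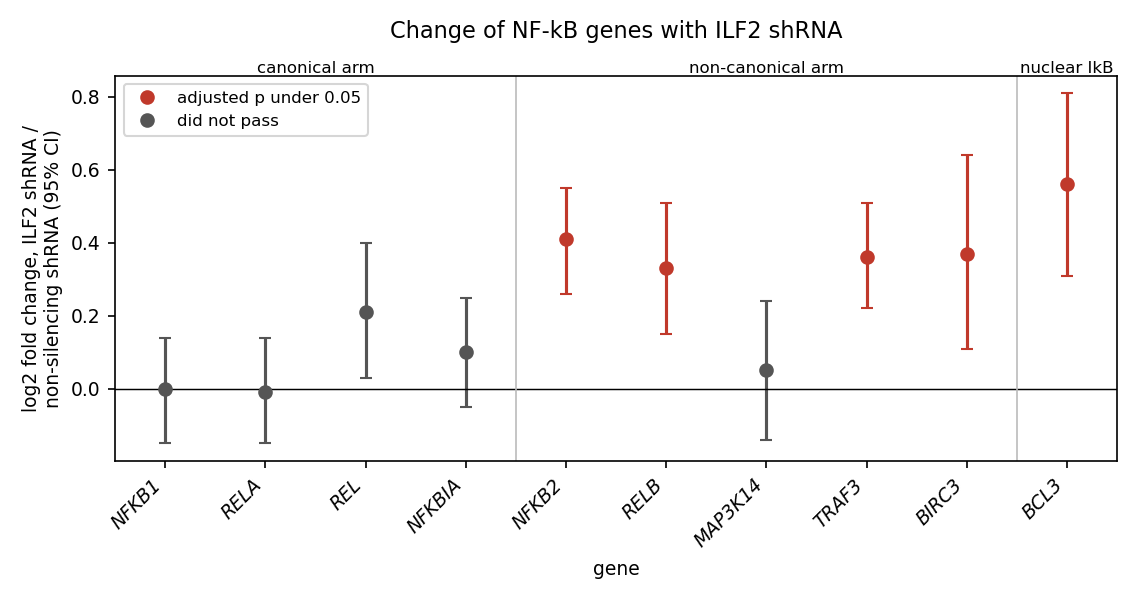
Log2 fold change of each of the 10 genes, ILF2 shRNA over non-silencing shRNA, with 95% intervals from the edgeR fit of 2 libraries per group and red for adjusted p under 0.05. The intervals of NFKB2, RELB, TRAF3, BIRC3 and BCL3 lie above 0, as does that of REL, which did not pass after adjustment, and those of NFKB1 and RELA are centred near 0.

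The 5 genes that rose changed by 1.26-fold to 1.48-fold, or by 0.33 to 0.56 on the log2 scale, where the median size of a called change over all genes was 0.40. Against a minimum log2 change of 0.5, none of the 10 passed (edgeR's glmTreat, 0 of 10, with 0.81% of all genes higher and 0.658% lower), and at an unadjusted p under 0.05 against no change 6 were higher and 0 lower, beside 15.5% and 15.4% of all genes. Both ILF2 shRNA libraries lay above both controls in 6 of the 10 genes and below them in 0, where 28.5% of all tested genes lay above and 28% below.

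Levels of different genes can be compared only per kilobase of exon (FPKM, the CPM divided by exon length in kilobases). On this scale NFKBIA was highest in the non-silencing libraries at 17.9 ± 0.182 FPKM (SD, n = 2), followed by NFKB2 at 12.4 ± 0.764 and RELA at 11.5 ± 0.848, whose libraries overlapped. NFKB1 came next at 7.58 ± 0.312, then RELB at 4.77 ± 0.453 and TRAF3 at 4.54 ± 0.0201, which again overlapped. MAP3K14 followed at 2.46 ± 0.318, BCL3 at 1.26 ± 0.280, REL at 1.09 ± 0.00851 and BIRC3 at 0.449 ± 0.00749 FPKM, with an overlap between BCL3 and REL. If only the exon bases of REL that no other gene shares are counted, its level was 2.21 and 2.23 FPKM, next to MAP3K14, and 2.78 and 2.37 FPKM with ILF2 shRNA, where MAP3K14 had 2.40 and 2.71 and the 2 genes overlapped. With all exon bases counted, the order of the 10 genes by mean was the same in the ILF2 shRNA group, with NFKB2 at 16.4 ± 0.790 FPKM and RELA at 11.5 ± 0.858.

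Set against NFKB1 and RELA in turn, NFKB2 and RELB stood higher with ILF2 shRNA, while RELB set against REL did not separate the groups. The ratio of NFKB2 to NFKB1 per kilobase was 1.76 and 1.52 in the controls and 2.13 and 2.22 with ILF2 shRNA. That of RELB to RELA was 0.420 and 0.407 against 0.540 and 0.508. In both pairs the groups did not overlap. The ratio of RELB to REL, which is also a canonical subunit gene, was 4.67 and 4.04 against 4.27 and 5.24, and the groups overlapped. That of NFKB1 to RELA, both canonical, was 0.607 and 0.714 against 0.688 and 0.636, and the groups overlapped. With 2 libraries per group a two-sided exact permutation test cannot go below p = 0.333, and no test was made on the ratios, which repeat the changes of the single genes.

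**Figure D3:**
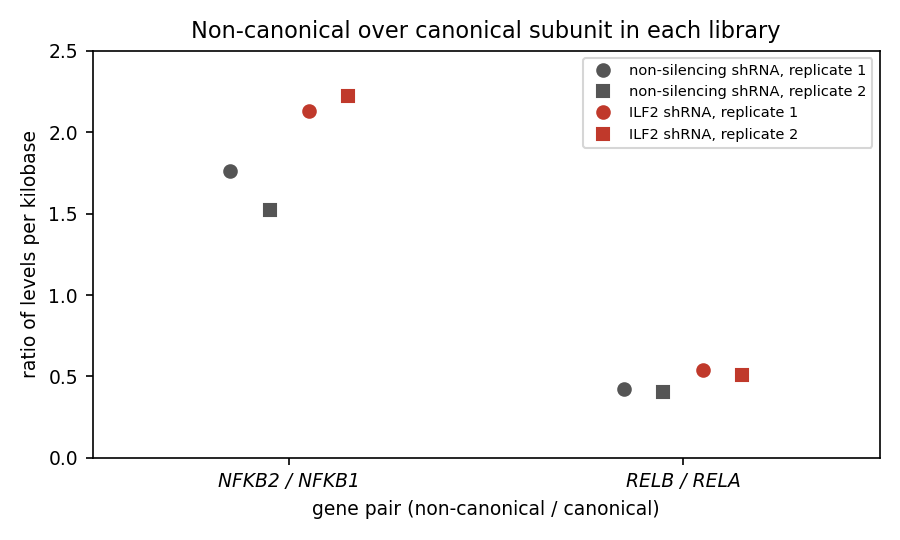
Ratio of the level per kilobase of NFKB2 to NFKB1 and of RELB to RELA in each library, on an axis from 0, in grey for non-silencing and red for ILF2 shRNA. In both pairs the 2 ILF2 shRNA libraries lie above the 2 controls, at 2.13 and 2.22 against 1.76 and 1.52 for the first pair and at 0.540 and 0.508 against 0.420 and 0.407 for the second.

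The genes next to those that rose were looked at in the same way, beside the 10.2% higher and 10.1% lower of all genes. BCL3 and RELB both lie on chromosome 19, 241 kb apart, and of the 5 tested genes between them 0 rose and 0 fell by edgeR, with a median log2 change of -0.14. Within 500 kb, 2 genes rose and 1 fell of 22 tested around NFKB2, of 25 around RELB and of 21 around BCL3. The rises around RELB include BCL3 and those around BCL3 include RELB, and these 2 windows overlap, so their counts are not separate. Near TRAF3 the count was 0 of 11 in either direction, and near BIRC3 it was 0 of 6. The median over all tested genes of the chromosome that holds each of the 10 lay between -0.03 and 0.01. None of the 10 lies on chromosome 5, where 267 of 900 tested genes rose, 30 fell and the median was 0.15.

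Other genes of the pathway were then read from 6 lists, which together held 89 genes outside the 10, of which 70 were tested, with 11 higher and 7 lower by edgeR and a median log2 change of 0.03. The 15.7% higher and 10% lower stand beside 10.2% and 10.1% of all genes. With non-silencing replicate 2 left out, 3 were higher and 5 lower (5.15% and 5.36% of all genes), and with non-silencing replicate 1 left out, 7 and 4 (5.37% and 5.39%). The counts were 12 and 5 without ILF2 shRNA replicate 1 (9.51% and 9.13%) and 9 and 7 without ILF2 shRNA replicate 2 (7.82% and 7.44%). With the replicate number as a block they were 7 and 6 (6.74% and 6.78% of all genes), and after the GC and length correction 15 and 11 (15.7% and 14.8%).

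The other IkB proteins hold NF-kB in the cytoplasm or act on it in the nucleus. Of their 4 genes, 0 rose or fell by edgeR or DESeq2. Of all genes, edgeR called 10.2% higher and 10.1% lower, and DESeq2 7.42% and 6.9%. At an unadjusted p under 0.05 in edgeR 1 of the 4 was higher and 2 were lower, beside 15.5% and 15.4% of all genes. The most abundant were NFKBIB, the gene for IkB beta (-0.19, adjusted p = 0.140 in edgeR), and NFKBID (-0.02, adjusted p = 0.936 in edgeR). NFKBIZ, which encodes the nuclear protein IkB zeta, had 8.36 and 9.14 CPM in the non-silencing and 10.6 and 10.3 CPM in the ILF2 shRNA libraries, and its change of 0.26 missed the threshold (adjusted p = 0.0511 in edgeR). It is named outside the rule because it passed with DESeq2 size factors in edgeR, with a filter of 1 CPM and after the GC and length correction.

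In the list of the IkB kinase complex and its activators, 3 of 22 genes fell and 0 rose by edgeR. The 13.6% lower stands beside 10.1% of all genes, and the 0 higher beside 10.2%. Of the kinase subunits, CHUK had a log2 change of -0.01, IKBKB of 0.08 and IKBKG of -0.16, and none passed (named outside the rule, because they form the complex; IKBKG has a near-identical copy, so its count is uncertain). MALT1, which encodes a protease that acts downstream of antigen receptors, fell from 88.5 ± 3.29 to 68.4 ± 3.04 CPM (SD, n = 2), which is -0.37 in log2 units (SE 0.07; adjusted p = 4.6e-05 in edgeR). BCL10, which encodes a binding partner of the MALT1 protein and is also named outside the rule, did not pass, with a log2 change of 0.08 (adjusted p = 0.656 in edgeR). TRAF5, an adaptor gene of tumour necrosis factor receptors, fell from 3.54 ± 0.0662 to 2.51 ± 0.0404 CPM (SD, n = 2; adjusted p = 0.00579 in edgeR), and lost its call by DESeq2 and when non-silencing replicate 1 was dropped.

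Of 13 genes for deubiquitinases and other negative regulators, 1 rose and 1 fell by edgeR. This is 7.69% in each direction, near the 10.2% higher and 10.1% lower of all genes. TNIP1, which encodes a partner of the A20 protein, rose from 89.4 ± 3.71 to 108 ± 7.23 CPM (SD, n = 2), which is 0.28 in log2 units (adjusted p = 0.00235 in edgeR), and it lies on chromosome 5. The call ended without non-silencing replicate 2. PDLIM2, which encodes a nuclear ubiquitin ligase of the RELA protein, fell from 12.6 ± 0.875 to 8.93 ± 0.223 CPM (SD, n = 2), which is -0.50 in log2 units (adjusted p = 4.3e-05 in edgeR).

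Many receptors and ligands that feed NF-kB were barely present, and only 9 of 19 could be tested. The transcripts of LTBR, TNF, CD40LG, TNFSF11 and TNFSF13 were listed at 0 in all 4 libraries, and those of TNFRSF13B, the receptor TACI, and TNFSF13B, its ligand BAFF, had at most 9 fragments in any library. These genes are named outside the rule. Of the 9 tested genes 3 rose and 1 fell by edgeR, or 33.3% and 11.1%, beside 10.2% and 10.1% of all genes. TNFRSF17, which encodes BCMA, the plasma cell receptor for BAFF and APRIL, was by far the most abundant at 507 and 522 CPM in the non-silencing and 611 and 614 CPM in the ILF2 shRNA libraries, a log2 change of 0.25 (SE 0.07; adjusted p = 0.00314 in edgeR). TNFRSF1B, the second receptor for tumour necrosis factor, rose by 0.25 (adjusted p = 0.00644 in edgeR), and the first, TNFRSF1A, had a log2 change of -0.36 (adjusted p = 0.0119 in edgeR). CD40, at 0.702 and 0.860 against 1.02 and 1.33 CPM, rose by 0.59 at the edge of the threshold (adjusted p = 0.0497 in edgeR). The calls of all 4 genes ended when either control library was left out.

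**Figure D4:**
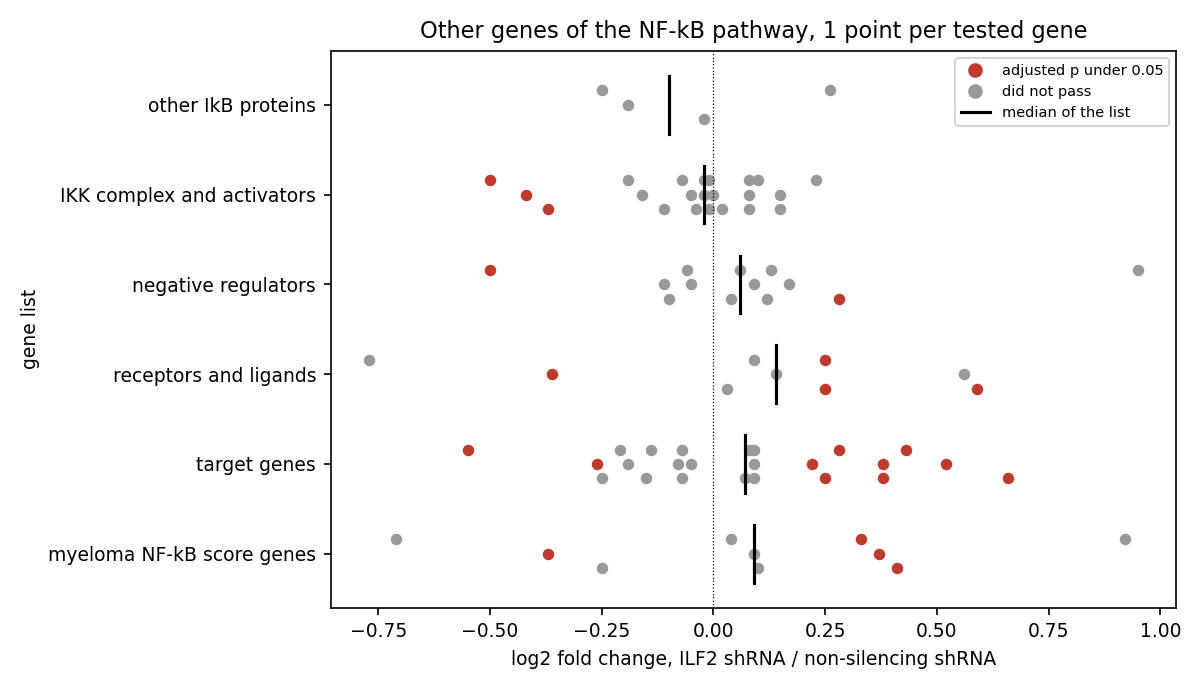
Log2 fold change, ILF2 shRNA over non-silencing shRNA, of each tested gene in 6 lists of the NF-kB pathway, with red for adjusted p under 0.05 in edgeR and a black bar for the median of the list. Called genes stand on both sides of 0 in the lists of negative regulators, receptors, targets and score genes, and the medians lie between -0.10 and 0.14. Some genes stand in more than 1 list, and 3 of the score genes in red are NFKB2, RELB and BIRC3.

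Of 35 textbook target genes outside the 10, 24 were tested, 8 rose and 2 fell by edgeR, with a median log2 change of 0.07. These are 33.3% and 8.33%, beside 10.2% higher and 10.1% lower of all genes. ICAM1, which encodes an adhesion molecule, had the smallest adjusted p and moved down, from 77.1 ± 0.582 to 52.7 ± 4.64 CPM (SD, n = 2), which is -0.55 in log2 units (SE 0.07; adjusted p = 2.9e-08 in edgeR). CD44, the hyaluronan receptor gene, rose from 545 ± 28.4 to 711 ± 0.452 CPM (SD, n = 2), by 0.38 (adjusted p = 7.8e-06 in edgeR). RASGRP3, the gene for an activator of RAS proteins, rose by 0.43 (adjusted p = 9.1e-06 in edgeR), and the chemokine gene CCL4, at 1.96 and 1.98 against 3.28 and 2.96 CPM, rose by 0.66 (adjusted p = 0.00058 in edgeR). The remaining calls, named outside the rule to complete the list, were rises of CCL3, CCL5, IRF1, TNIP1 and the survival gene BCL2A1, and a fall of the survival gene BCL2L1. CCL3 and CCL4 have near-identical copies, so their counts are uncertain. IRF1 and TNIP1 lie on chromosome 5, without which 6 of 22 tested target genes rose and 2 fell. With non-silencing replicate 2 left out, fewer of these target genes were called in either direction, and so were fewer of all genes tested. TNFAIP3, the gene for the inhibitor A20 and a standard readout of NF-kB activity named outside the rule, had 15.3 and 15 CPM against 16.9 and 15.3 CPM and did not pass (log2 fold change 0.09, adjusted p = 0.552 in edgeR).

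Of 11 genes used to score NF-kB activity in myeloma, which include 4 of the 10, 10 were tested, 3 rose and 1 fell. These are 30% and 10% by edgeR, beside 10.2% and 10.1% of all genes. The rises were NFKB2, RELB and BIRC3, and the fall was MALT1. CD74 had between 1 and 6 fragments per library and was not tested, and IL2RG, named outside the rule like CD74, had a log2 change of 0.04 (adjusted p = 0.926 in edgeR). Within that score the called rises were thus all from the 10 genes described above, and 0 of the other 6 tested genes rose by edgeR or DESeq2. At an unadjusted p under 0.05 in edgeR, WNT10A was higher (0.92), and PLEK (-0.71), NFKBIE (-0.25) and MALT1 were lower. WNT10A, PLEK and NFKBIE are also named outside the rule.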

How the data were processed

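Counts of read pairs per gene are the authors', from featureCounts (Subread 1.4.6-p2) run on exons of Ensembl GRCh37 genes with strand setting 2, per the file headers. The submitters' processing notes list STAR 2.3.0 and the design text names Tophat2. Exon lengths (other) are as deposited. Symbols were matched by gene ID for 55665 of 63677 genes and by position for 502 (reciprocal overlap 0.8 or more). The 4 libraries, grouped by title, entered edgeR 4.0.16 under R 4.3.3: TMM, filterByExpr (minimum count 10), robust quasi-likelihood tests, Benjamini-Hochberg adjustment over 19142 genes, and 2 residual degrees of freedom. SE came from the F statistic. Alternatives used DESeq2 1.42.0, limma 3.58.1 and mgcv 1.9.3. The scripts were tested on simulated data. The 10 genes and all lists were chosen with earlier results of these data known. Named were the 10 genes, ILF2 and, per list, up to 4 called genes with the smallest adjusted p (all where 5 or fewer were called, the 2 most abundant where none was); others are marked as outside this rule. One called gene of the lists is counted but not reported here by name.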

Additional observations from a re-analysis of the deposited data

How the results depend on the processing

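NFKB2 and TRAF3 passed in every alternative run except the test against a log2 change of 0.5 (glmTreat), in which NFKB2 (0.41), RELB (0.33), TRAF3 (0.36), BIRC3 (0.37) and BCL3 (0.56) all lost their call, leaving 0 of the 10 genes, 0 and 0 of the other pathway genes, and 155 higher and 126 lower genes in all. BIRC3 also lost its call by DESeq2 (0.38), limma-voom (0.35), upper-quartile factors (0.37) and the replicate block (0.37, adjusted p = 0.0718). REL gained one after the GC and length correction, with or without the replicate block (0.24 in both), and with a crossed pairing (0.21). RELA turned to 0.01 in both corrected fits. The other pathway genes higher and lower numbered 7 and 6 with the replicate block, 15 and 11 after the correction (14 and 11 with the block), and 17 and 11 with the crossed pairing. Over all genes, 1291 were higher with the replicate block (6.74%, with 6.78% lower) and 3014 after the correction (15.7%, with 14.8% lower). The shares higher and lower were 15.2% and 14.1% for the correction with the block, and 15% and 14.9% with the crossed pairing.

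Leaving out each library in turn gave -0.04 to 0.04 for NFKB1, 0.10 to 0.33 for REL, -0.09 to 0.07 for RELA, -0.01 to 0.20 for NFKBIA, 0.24 to 0.43 for RELB, -0.07 to 0.19 for MAP3K14, 0.14 to 0.58 for BIRC3 and 0.35 to 0.81 for BCL3. It gave 2 to 6 of the 10 genes higher and 0 lower, 3 to 12 and 4 to 7 of the other pathway genes, and 1029 to 1899 higher and 1070 to 1822 lower genes in all. The lone library of a group is assumed there to vary like the other group. Deviations of libraries with the same number had a correlation of -0.143, and the labels tie a number to no shared batch, so the replicate block is a comparison only; it changed no other call among the 10. The crossed pairing and the counts without chromosome 5 were chosen after seeing the data.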
